A study of Homo sapiens with 4 samples.

Results

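The mRNA of MT-ND5, written ND5 here, was followed base by base through chemical probing data of human mitochondrial RNA. It is 1 gene of the 37 in the mitochondrial genome, and its members are all bases of its coding region in the heavy-strand tables, from position 12336 to position 14147 of the mitochondrial chromosome in the numbering of the files, which runs 1 lower there than RefSeq's numbering. The region holds 1812 bases, of which 551 are A, 622 are C, 192 are G and 447 are T. The reading frame runs from an ATA start codon to a TAA stop codon over 604 codons with no other stop. Of the 1173 A and C bases, 1165 (545 A and 620 C) had a mean mismatch level between 0.2% and 30% over all libraries and were tested. Another 6 lay below the lower limit and 2 above the upper one, and both sets are described apart.

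The libraries came from mitochondria isolated from HEK-293T cells, a transformed line of human embryonic kidney origin, either wild type or with LRPPRC knocked out. Each group had 2 libraries that the labels call biological replicates, and all 4 were treated alike with 1% dimethyl sulfate (DMS) for 5 min at 37 °C and copied with the reverse transcriptase TGIRT-III. The labels do not say how the knockout was made or from how many clones, and LRPPRC is a nuclear gene, so its loss could not be checked in these mitochondrial tables. The tables give the fraction of reads with a mismatch at each base and no counts, so read depth is unknown, no counting interval can be given, and libraries without DMS were not analysed here.

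DMS methylates A and C at the edge that forms Watson-Crick pairs, so a base is modified mainly where it is neither paired nor shielded, and a reverse transcriptase that reads through the lesion leaves a mismatch. G and T carry no such signal under these conditions, and their mismatches serve as background; in double-strand genomes they also rise where reads of the opposite strand are counted, because an A or C of one strand lies opposite a T or G of the other. ND5 is a core membrane subunit of respiratory complex I, in the arm that pumps protons. LRPPRC is a mitochondrial RNA-binding protein that works with SLIRP and is known for keeping mitochondrial mRNAs stable and polyadenylated.

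The stretches that carry the main findings are shown first, each 5′ to 3′ on the RNA-like strand with T for U. In the 50-nt windows, capitals mark A and C bases whose group mean was at least 5% and at most 30%. The genome build is not given in the sources used here. Of the windows, chrM:13886-13935 had the largest fall in the knockout, 12536-12585 had the highest level of all windows in the knockout, and 12986-13035 was the lowest window of the wild type. The letters are those of the tables, also at G 13888, in the first window, which was mismatched in nearly all reads. In the hairpins and the run of A, capitals mark the predicted stem or the run.
Window 13886-13935, wild type: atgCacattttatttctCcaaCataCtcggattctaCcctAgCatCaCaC
Window 13886-13935, LRPPRC knockout: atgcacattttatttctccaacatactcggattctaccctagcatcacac
Window 12536-12585, wild type: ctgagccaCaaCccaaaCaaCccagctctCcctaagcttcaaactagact
Window 12536-12585, LRPPRC knockout: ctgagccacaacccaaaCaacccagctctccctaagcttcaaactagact
Window 12986-13035, wild type: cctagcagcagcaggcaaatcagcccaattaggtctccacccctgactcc
Hairpin 12608-12626: TGTAGCattgttcGTTACA
Hairpin 13800-13813: ACAGCcctcGCTGT
Hairpin 12975-12990: CTAGGcctcctCCTAG
Longest run of A, 12412-12429: ctaacAAAAAAAActcat

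ND5 was less modified in LRPPRC knockout mitochondria at both target bases. The mean mismatch level over the tested A and C bases was 3.67% and 3.64% in the wild-type libraries and 2.27% and 2.26% in the knockout libraries. The groups did not overlap, and the difference of means was -1.39 percentage points with an SD of 0.0235 in wild type and of 0.00371 in the knockout (n = 2 each). A went from 2.92% ± 0.00731 to 1.99% ± 0.00927 (SD, n = 2), and C from 4.31% ± 0.0377 to 2.51% ± 0.00117. C was thus the more modified base in both groups and showed the larger difference. With 2 libraries against 2, a two-sided exact permutation test cannot give a p below 0.333, which was its value for every group difference described here as not overlapping.

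The other bases went the opposite way. Mean mismatches at G were 0.502% and 0.463% in wild type against 0.695% and 0.734% in the knockout, and at T 1.09% and 1.04% against 1.19% and 1.21%. Both bases were higher in both knockout libraries. The ratio of A and C to G and T was therefore 3.98 and 4.16 in wild type against 2.16 and 2.11 in the knockout. Deletions, a second trace of lesions, were lower in the knockout at A, with means of 0.292% and 0.176%, and at C, with 0.132% and 0.0672%. They were also lower at G, with 0.0706% and 0.0649% in wild type against 0.0561% and 0.0553% in the knockout. At T the means were 0.0951% and 0.0942%, with overlapping libraries.

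**Figure D1:**
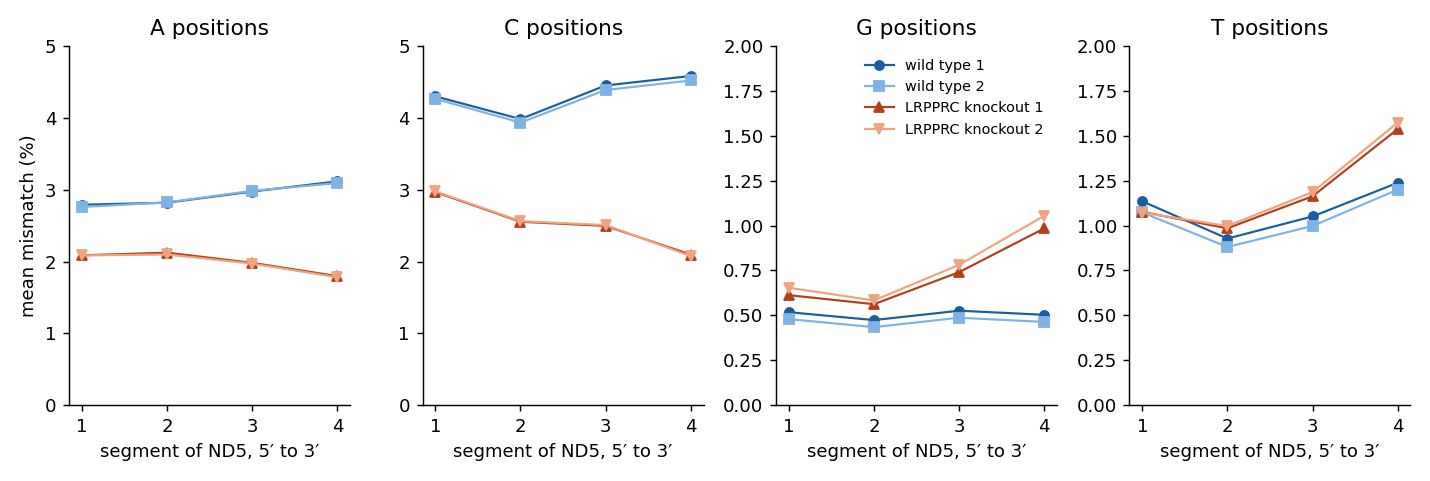
Mean mismatch level in percent (vertical axis; 0 to 5 for A and C, 0 to 2 for G and T) at A, C, G and T of ND5 in 4 segments of equal length from the 5′ to the 3′ end of the coding region, 1 line per library. The knockout lines lie below wild type at A and C in every segment and diverge towards the 3′ end, where G and T reach their highest level in the knockout.

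Reads that belong to the opposite strand were estimated from the tables themselves. For each G or T of ND5 the value was set against the level of the paired C or A in the light-strand table, with a separate intercept for G and for T; the slope of that line was 9.45% and 9.78% in wild type against 21.9% and 23.0% in the knockout. The slope was higher in both knockout libraries. The paired light-strand bases themselves had nearly the same mean level, 2.45% in wild type against 2.44% in the knockout, with overlapping libraries. The slope also takes in errors that both strands' tables share, and the light-strand table may itself hold heavy-strand reads, so it is not a measured share of reads. Taken the other way, light-strand G and T on the paired A and C of ND5, the slope was 25.6% ± 1.08 in wild type against 14.9% ± 0.0442 in the knockout (SD, n = 2). This reverse slope was uneven along ND5. In the 4 segments from 5′ to 3′ it was 6.98%, 56.0%, 18.2% and 9.13% in wild type. In the knockout it was 3.04%, 33.8%, 20.2% and 0.875%, so it was higher there in segment 3. Segment 2 holds C 12881 and C 12980, described below, which had high levels on both strands in wild type. Values corrected with the slope carry this limit.

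Whether the change of ND5 was called depended on scaling. Levels were analysed as log2 of the fraction plus 0.001, and the library median over all 9910 tested heavy-strand positions itself differed by -0.63 (-5.64 in the knockout, -5.01 in wild type). Relative to that median, the mean change of ND5 was 0.0054 (SE 0.0074, adjusted p = 0.539, limma over 37 genes), and ND5 was not called. Of all genes, each set against the median of its own strand, 83.8% were called. Without centring the change of ND5 was -0.62 (SE 0.0078, adjusted p = 4.3e-07, limma), with 73.0% of genes called. That fit compares ND5 with no change at all. It does not set ND5 apart from the strand, whose median moved by -0.63. With C alone, centred on the C positions, the change was 0.08 (adjusted p = 0.000838), and with A alone it was -0.0032 (adjusted p = 0.734). Within each library, ND5 lay 0.10 and 0.11 log2 above the mean of the other 11 heavy-strand mRNAs in wild type, and at -0.0020 and -0.0011 in the knockout. That change of -0.11 became 0.0265 when every gene was corrected for its slope on the opposite strand, which in wild type was 9.62% for ND5 and ran from 3.87% (ND3) to 46.8% (COX2) in the others.

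The near-zero mean change hid a gradient along the mRNA. In 4 segments of equal length from 5′ to 3′, the A and C level in wild type was 3.53%, 3.45%, 3.74% and 3.89%, highest in the segment at the 3′ end. In the knockout it was 2.53%, 2.36%, 2.25% and 1.95%, lowest there. The uncentred log2 change was -0.43 in segment 1, -0.46 in segment 2, -0.68 in segment 3 and -0.90 in segment 4. No segment had overlapping groups; the exact permutation p of each was 0.333, also after adjustment over the segments.

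**Figure D2:**
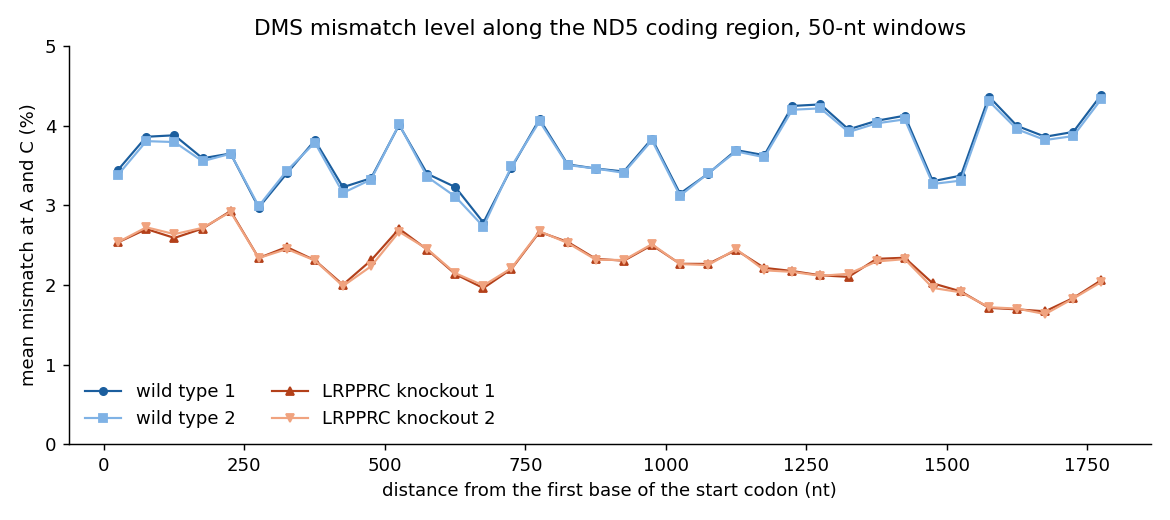
Mean mismatch level in percent at tested A and C bases (vertical axis) in 36 consecutive 50-nt windows of ND5 against the distance of the window's centre from the first base of the start codon in nt, 1 line per library. Replicate lines lie almost on top of each other, and the wild type ranges from 2.76% to 4.36%. The gap to the knockout is wide over most of the last 12 windows. It narrows at bases 1451 to 1550 and is widest at bases 1551 to 1600.

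The end-to-end difference, the mean log2 level of segment 4 minus that of segment 1, was 0.11 in each wild-type library and -0.34 and -0.36 in the knockout libraries. It needs no scaling between libraries. It changed by -0.46 (SE 0.011, adjusted p = 5.0e-05, limma over the 12 heavy-strand mRNAs and both rRNAs), and 71.4% of those 14 RNAs were called, 42.9% as lower. At C alone the change ran from -0.48 in segment 1 to -1.06 in segment 4, and at A alone from -0.39 to -0.71, so both bases took part.

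**Figure D3:**
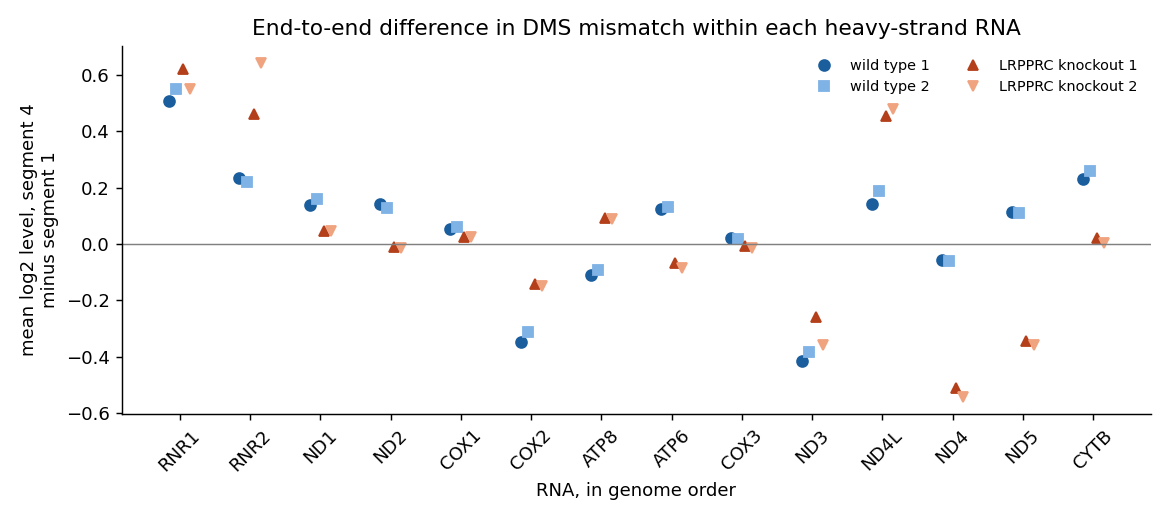
Mean log2 level of segment 4 minus segment 1 (vertical axis) for both rRNAs and the 12 heavy-strand mRNAs in genome order, 1 symbol per library. ND5 and ND4 are below -0.3 in both knockout libraries and above -0.1 in both wild-type libraries.

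ND4, the mRNA of another complex I subunit that lies upstream of ND5, gave similar values. Its end-to-end difference was -0.06 in both wild-type libraries and -0.51 and -0.54 in the knockout, a change of -0.47. The difference between the changes of ND5 and ND4 was 0.0066, with overlapping groups (exact permutation p = 1.0), which with 2 libraries each does not show that they acted alike. Against the mean of the other 11 mRNAs the change of ND5 was -0.42, with values of 0.12 and 0.10 in wild type against -0.31 in each knockout library. For CYTB, the next mRNA downstream, the change was -0.23.

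Background and opposite-strand measures moved with this gradient. G mismatches went from 0.499% to 0.633% in segment 1 and from 0.483% to 1.02% in segment 4, and T went from 1.10% to 1.07% in segment 1, with overlapping groups, and from 1.22% to 1.56% in segment 4. The slope on the paired light strand was 4.85%, 9.12%, 10.5% and 7.84% in the wild-type segments and 9.70%, 14.0%, 26.6% and 35.6% in the knockout. When each segment was corrected for its own slope, an alternative chosen after seeing the data, the changes were -0.38, -0.36, -0.47 and -0.58. The corrected end-to-end change was -0.19, with 0.14 in both wild-type libraries and -0.06 and -0.04 in the knockout. The gradient was thus smaller after correction, -0.19 in place of -0.46, and the groups still did not overlap. The corrected change of the whole of ND5 was -0.45. How much of the gradient the opposite-strand reads account for was not tested beyond this.

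**Figure D4:**
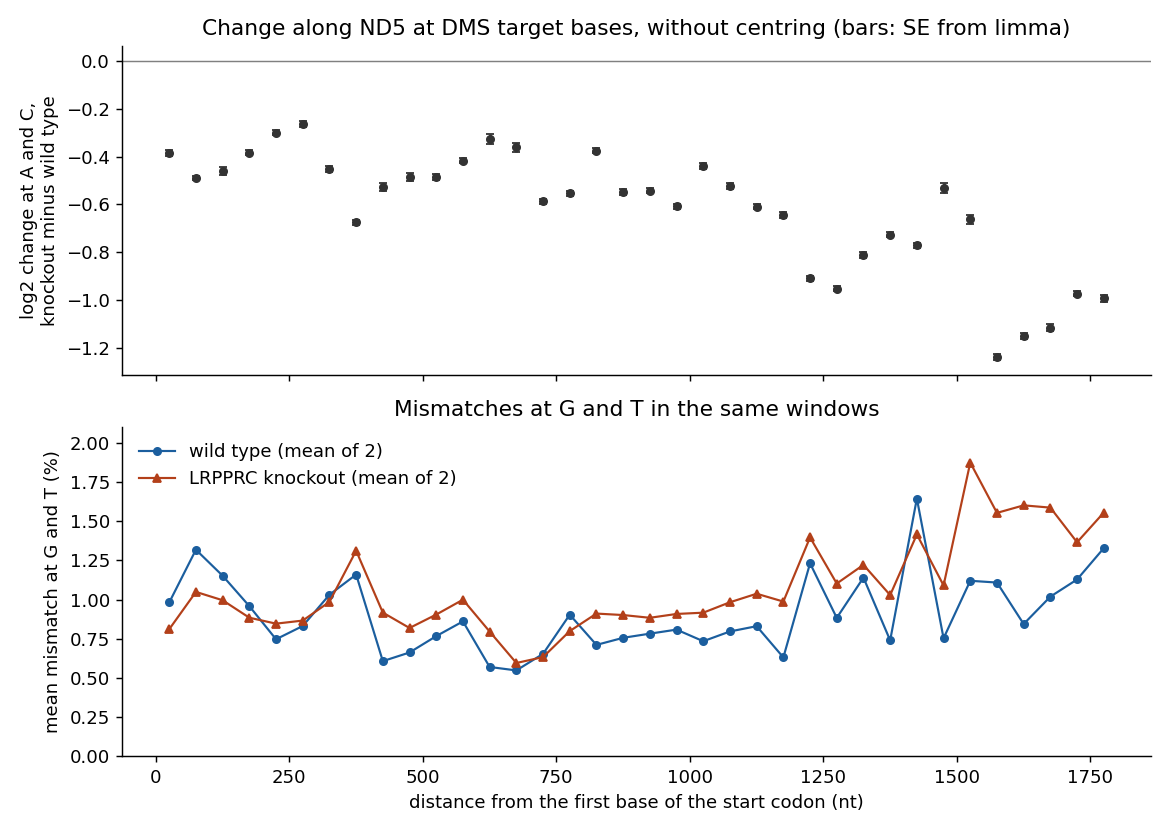
Top, log2 change at tested A and C bases without centring, knockout minus wild type, with the SE from limma, in 50-nt windows of ND5 against distance from the start codon in nt; bottom, mean mismatch level in percent at G and T in the same windows, group means of 2 libraries. Every window is below 0 at the top, from -0.26 to -1.24. The knockout's G and T line rises above wild type most clearly at bases 1501 to 1700, and the gap is smaller in the windows after them.

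In 50-nt windows laid from the first base of ND5, all 36 fell without centring, where 90.9% of the 331 windows of the strand fell and 93.1% were called in either direction (limma, adjusted p under 0.05). After centring, 32 were called against a background of 85.2%. Of these 21 were higher in the knockout and 11 lower, where 58.9% of all windows were higher and 26.3% lower. The first 24 windows held 20 of the higher and 1 of the lower ones, and the last 12 held 1 and 10.

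The falls were greatest in 13886-13935, bases 1551 to 1600 of the coding region. Its A and C level was 4.36% and 4.31% in wild type against 1.71% and 1.72% in the knockout, a centred change of -0.61 (SE 0.011, adjusted p = 5.4e-08, limma) and an uncentred one of -1.24. As the printed sequences show, 10 of its bases reached 5% in wild type while 0 did in the knockout. G and T in that window went from 1.11% to 1.55%. The next window, 13936-13985, fell by 0.52 after centring, from 4.00% and 3.95% to 1.69% and 1.70%.

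The rises after centring were greatest near the 5′ end. Window 12586-12635 had 2.97% and 2.99% in wild type against 2.34% in both knockout libraries, 0.37 above the median change (SE 0.012, adjusted p = 3.3e-07, limma). Window 12536-12585 had 3.65% in both wild-type libraries and 2.93% and 2.92% in the knockout, 0.33 above it. Both lost signal in absolute terms, by 0.26 and 0.30 on the uncentred log2 scale, so the rise is only relative to the strand as a whole. The 12536-12585 window had the highest level of all ND5 windows in the knockout.

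In wild type the most modified windows were 14086-14135 at 4.36%, 13886-13935 at 4.33% and 13586-13635 at 4.24%. The least modified were 12986-13035 at 2.76%, 12586-12635 at 2.98% and 13336-13385 at 3.13%. The lowest had no base at 5% or more among its 33 tested A and C bases, and the highest had 11 among 29. The wild-type window means thus spanned less than 2 percentage points in all.

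The drop went on past the stop codon, into the stretch that is antisense to ND6. There the uncentred change reached -1.81 at 14336-14385, where the level was 4.61% and 4.53% in wild type against 1.18% and 1.16% in the knockout. It shrank to -0.45 at 14636-14685. The last 50 bases of the coding region, including the stop codon, stood at 0.24 log2 relative to the rest of ND5 in wild type, against -0.10 in the knockout, and the first 50 at -0.14 and 0.12.

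Counted by single position, the same values gave the same arrangement, which is no separate evidence of it. After centring, 878 of the 1165 tested positions were called (limma, adjusted p under 0.05), or 75.4% against a background of 71.5% of the strand. Of these 484 were higher, where 44.9% of the strand's positions were, and 394 lower, where 26.6% were. In segment 1 the counts were 186 higher and 33 lower, in segment 2 they were 170 and 42, in segment 3 they were 88 and 125, and in segment 4 they were 40 and 194. Without centring 1071 fell and 25 rose, where 78.3% and 4.73% of the strand did and 83.0% were called in all. Groups did not overlap at 1140 positions, 97.9% of ND5 against 92.1% of the strand.

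The largest fall after centring was at C 12980, the third base of codon 215, in the loop of the hairpin 12975-12990. Its level was 20.1% and 19.3% in wild type against 5.12% and 4.84% in the knockout, a centred change of -1.33 (SE 0.047, adjusted p = 0.000159, limma). C 13928, inside the window with the largest fall, went from 7.04% and 6.99% to 1.86% and 1.73%, a centred change of -1.28. C 13784 went from 6.85% and 6.79% to 1.80% and 1.69%, also -1.28. The group means of these 3 bases differed by -14.7, -5.22 and -5.08 percentage points, and the groups did not overlap.

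The largest rise was at C 13854, the first base of codon 507. It was nearly silent in wild type, with 0.792% and 0.849%, and reached 2.64% and 2.66% in the knockout, a centred change of 2.21 (SE 0.061, adjusted p = 0.000129, limma). It also rose without centring, by 1.58, inside a segment where 290 of 305 positions fell. A 14074, the first base of a run of A, rose from 0.216% and 0.195% to 0.496% and 0.483%, a centred change of 1.58 at a level near the lower limit. C 13454 rose from 4.48% and 4.46% to 8.16% in both knockout libraries, a centred change of 1.49.

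Some of these positions also had high mismatches on the other strand. The T or G paired with a tested A or C had a median of 1.01% in the wild-type light-strand table and 0.478% in the knockout, and 5 of 1165 positions had a group mean of 5% or more there. At C 12881, the most mismatched tested base in wild type and the one nearest to the upper limit, ND5 had 20.0% and 20.1% in wild type against 11.8% and 11.7% in the knockout, and the paired light-strand base 18.9% and 10.5% as group means. At C 12980 the paired base had 9.28% and 0.396%, and at C 13454 it had 1.16% and 6.28%. In these 3 cases the paired base, which DMS does not mark under these conditions, moved in the same direction as the C. The other 2, A 12436 and A 13549, had 2.03% and 3.69% in the wild-type ND5 tables, with paired bases at 3.67% and 5.26% there and at 6.43% and 3.08% in the knockout. Whether these bases differ from the reference sequence in part of the molecules was not tested. Without all 5 positions the mean A and C level was 3.63% in wild type against 2.25% in the knockout.

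At C 13854, C 13928 and C 13784 the paired base stayed low. It was at 0.549% and 0.415%, 0.865% and 0.378%, and 1.17% and 0.430% in the 2 groups. At A 14074 the paired base had 1.18% in wild type and 1.21% in the knockout, above the A itself in both. Whether opposite-strand reads account for the rise of that A was not tested. The remaining strongly modified bases of wild type were A 13709 with 19.5% in both libraries, C 12463 with 10.4% and 10.5%, and C 13558 with 9.73% and 9.77%. In the knockout they had 10.7% and 10.4%, 4.62% and 4.58%, and 2.92% and 3.06%. At A 13709 the paired base had 3.19% and 0.406%.

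Above the upper limit stood 5 bases of any kind, which are set apart as possible differences from the reference sequence. Of these, 4 had more than 90% mismatches in every library: G 12371, C 12800, T 13616 and G 13888. The fifth, C 12699, the first base of codon 122, had 28.1% and 28.7% in wild type against 44.9% and 45.5% in the knockout. Its paired light-strand base had 25.9% and 25.1% in wild type against 46.8% and 47.0% in the knockout. The level was similar on both strands and higher in both knockout libraries.

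All 6 bases below the lower limit were A, and all lay in the 5′ part of a run of A. In the run of 8 A from 12417 to 12424 the first 3 had 0.0950%, 0.0585% and 0.0390% in wild type, and the last had 1.64%. In the run of 7 from 13230 to 13236 the first 3 had 0.137%, 0.0785% and 0.136%, and the last had 2.05%. Just inside the limit lay the first base of the start codon, A 12336, at 0.178% in wild type and 0.235% without LRPPRC, and A 13406, at 0.291%, which opens a run of 5. Over all 15 runs of at least 4 A in ND5, the last A was above the first in 13 in wild type and in 12 in the knockout. The second A of a run averaged 1.56% and the last 3.15% in wild type, against 2.98% for A outside such runs. In the knockout these were 1.06%, 1.80% and 2.04%. The predicted chance of being unpaired was 0.852 for the second A and 0.796 for the last. Deletions were at 0.0151% for the second A and 0.0387% for the last in wild type, against 0.331% for A outside such runs.

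The level rose with the predicted chance of being unpaired at C, while at A the rank correlation was weak. The predicted measure was the probability of being unpaired from RNAplfold, a local folding program that knows nothing of the probing data. Over 620 tested C bases of ND5, Spearman's rho was 0.385 and 0.375 in wild type against 0.303 and 0.308 in the knockout. Over 545 A bases it was 0.060 and 0.073, and 0.015 and 0.018. A bases with an unpaired probability below 0.2 were still the lowest, at 2.07% in wild type and 1.45% in the knockout. Those from 0.4 to 0.6 had 3.62% and 2.50%, and those above 0.8 had 2.94% and 1.97%. These are descriptions over bases that share libraries and neighbours. Over A and C together rho was 0.226 in wild type against 0.175 in the knockout, the lowest of the 12 heavy-strand mRNAs in both groups; ND4L had the highest in both, 0.647 and 0.590.

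**Figure D5:**
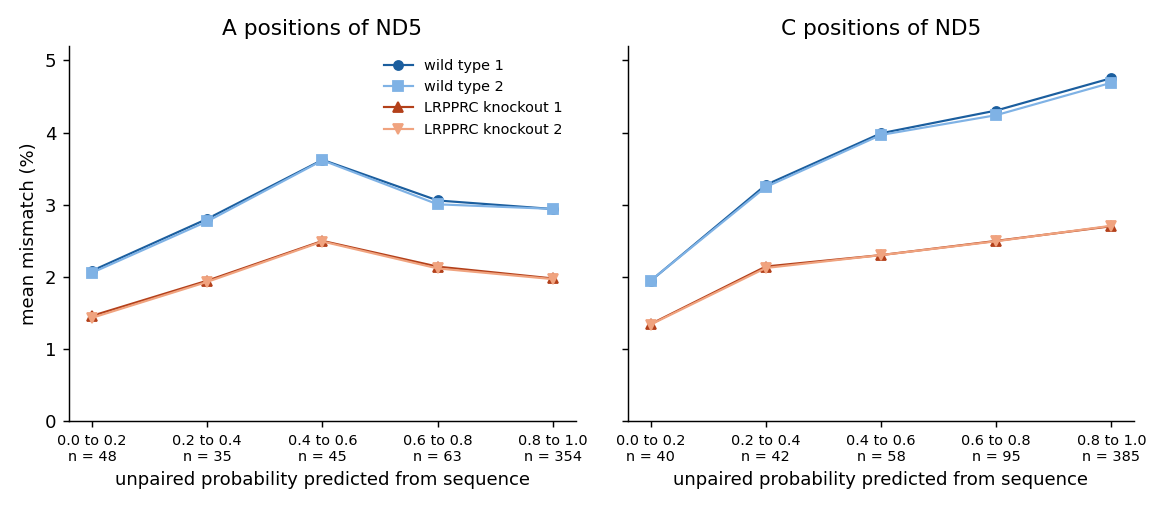
Mean mismatch level in percent (vertical axis) of tested A bases (left) and C bases (right) of ND5, grouped by the unpaired probability predicted from sequence, 1 line per library, with the number of bases under each group. C climbs steadily from 1.95% to 4.72% in wild type and from 1.34% to 2.71% in the knockout, while A peaks in the middle group.

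The gap between predicted unpaired and paired bases was smaller in the knockout. At A and C with an unpaired probability below 0.2 the level was 2.02% and 2.01% in wild type against 1.41% and 1.39% in the knockout. Where it was above 0.8 the level was 3.89% and 3.85%, and 2.36% in both knockout libraries. The log2 change was -0.37 at the paired bases and -0.67 at the unpaired ones, a difference of -0.30 between the changes. That difference was -0.14 with A alone, -0.46 with C alone, and -0.14 when bases under 0.01 were left out, where the paired bases changed by -0.53. The Gini index, which is 0 when all bases have the same level and grows as signal gathers on few bases, was 0.244 in both wild-type libraries and 0.219 and 0.220 in the knockout. It fell by 0.0246 (SE 0.0024, adjusted p = 0.0102, limma over genes; 45.9% of genes called). The call was lost without wild-type replicate 2 (adjusted p = 0.0523), knockout replicate 1 (0.123) or knockout replicate 2 (0.117), and with C alone the change was 0.0025 (adjusted p = 0.377).

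Predicted helices of at least 5 base pairs with a probability of at least 0.7 numbered 14. Their 82 tested stem bases averaged 2.18% in both wild-type libraries, and all other bases 3.79% and 3.75%. In the knockout stems had 1.69% and 1.67% and the rest 2.31% in both libraries. The stem level was below the rest in every library, and its log2 change was smaller, -0.26 against -0.65.

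The hairpin 12608-12626 shown above, with 6 predicted pairs, had a mean of 1.02% and 1.01% at its 5 tested stem bases in wild type. Its 2 loop bases had 4.06% and 4.18%. In the knockout the stem had 1.09% and 1.08% and the loop 3.38% and 3.42%, so the stem and loop remained apart. The hairpin 13800-13813, with 5 pairs, had 1.68% and 1.70% in the stem and 4.17% and 4.00% in the loop of wild type, and 1.16% and 1.09% against 2.14% and 2.07% in the knockout. The hairpin at 12633-12654 had 2.75% in its stem and 4.06% in its loop as wild-type means, and 1.88% and 3.03% in the knockout. The longest of these helices, 11 pairs between 12757 and 12809, showed no such contrast, with 2.42% in the stem and 2.50% at the 13 tested bases of the 31 it encloses in wild type against 1.78% and 1.66% in the knockout. Its stem holds C 12800, folded here as the letter of the tables although more than 90% of reads differed from it.

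The loop of 12975-12990, chosen here because it holds C 12980, had 6.74% and 6.44% in wild type against 2.85% and 2.83% in the knockout, while the stem had 0.722% and 0.706%, and 1.03% and 1.04%. Most of the difference lay in C 12980, 1 of the 4 tested bases of that loop, whose paired light-strand base also had a high level in wild type. Without it the other 3 loop bases averaged 2.29% and 2.16% in wild type, against 2.09% and 2.15% in the knockout. The stem was among the 3 of 14 whose mean was higher in the knockout.

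Position within the codon made little difference to the change. The level at codon positions 1, 2 and 3 was 3.27%, 3.93% and 3.80% in wild type against 2.04%, 2.43% and 2.34% in the knockout. The uncentred log2 changes were -0.62, -0.64 and -0.63, each with groups that did not overlap (exact permutation p = 0.333, also after adjustment over the 3 positions).

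Among the 7 complex I mRNAs of mitochondrial DNA (ND1, ND2, ND3, ND4L, ND4, ND5 and ND6), 4 were higher after centring, 2 were lower and ND5 alone was not called. Over all 37 genes 22 were higher and 9 lower, with 83.8% called, so the list's counts lay near the background. Each gene was centred on the median of its own strand. ND6 and the other light-strand genes therefore had another reference than the heavy-strand genes. ND6 was at -0.61 after centring and at -0.07 without. Among the 12 heavy-strand mRNAs, 9 were higher and 1, ND4, was lower. The median change was 0.11 for the list, 0.16 over all genes and 0.14 over the 12 heavy-strand mRNAs. All 7 fell without centring, with a median of -0.50, where 64.9% of all genes fell. All 12 heavy-strand mRNAs fell as well, with a median of -0.49. The Gini index fell in all 7 and in all 12 heavy-strand mRNAs, where 37.8% of genes fell, so neither fall set the complex I mRNAs apart from the other mRNAs. By the levels at A and at C in the 4 libraries, the mRNAs most like ND5 were ND2, ND3 and CYTB, with Euclidean distances over 8 log2 values of 0.27, 0.28 and 0.31. ND4, whose end-to-end change was close to that of ND5, was among the least like by this measure, at 0.47.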

How the data were processed

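The deposited tables hold, per the file headers, a mismatch fraction and a fraction of mismatches together with deletions for each base of each strand, made by the authors with cutadapt and Bowtie2, per the submitters' processing notes; the genome build and the counting tool are not given in the sources used here. Fractions of A and C with a mean over the 4 libraries between 0.002 and 0.3 were taken as log2(fraction + 0.001). They were centred on each library's median over the tested positions of the same strand. Fits used limma 3.58.1 (R 4.3.3, lmFit, eBayes with trend, none for the Gini index or the end-to-end difference). These ran over the whole strand or all genes, with Benjamini-Hochberg adjustment. Single values were compared by exact permutation over libraries. Pairing was predicted with RNAplfold 2.7.2 (window 240, span 160). Tested on simulated data for knockout against wild type over 9910 positions, the position fit recovered 83.0% of 100 changes of 1 log2 and 22.0% of 100 changes of 0.5, and called 0 of 9710 unchanged positions. The simulation changed few positions and shuffled the SDs across all positions, whereas 71.5% were called in the data. These figures therefore do not give the recovery or the false calls of the reported fit.

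Named positions were the 3 largest rises and falls among called ones and the 5 highest in wild type; windows, the 3 highest and lowest in wild type and the 2 largest rises and falls; helices, the 4 most probable; genes, the complex I list and the 3 nearest mRNAs. The runs of A, the positions high on both strands, the slope in the other direction, the loop without C 12980, the end-to-end comparison and the last 50 bases were added after values were seen. The members and lists were chosen with earlier results of these data known. ND5 levels correlated at 0.996 between the wild-type and 0.993 between the knockout libraries over positions, and at 0.804 to 0.810 between groups. Deviations of same-numbered libraries did not correlate over the strand (0.0007), and the main fits treated the libraries as unpaired. With 2 libraries per group, this cannot show whether same-numbered libraries were prepared together. Alternatives covered scaling, limits, pseudocount, bases, deletions, window size, folding settings, opposite-strand correction, replicate block and leaving out each library.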

Additional observations from a re-analysis of the deposited data

How the results depend on the processing

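The centred whole-gene change of ND5 has no stable sign: it was -0.0032 with A alone, -0.0063 with deletions added, -0.0407 with a lower limit of 0.01, -0.0136 with a pseudocount of 0.01, -0.62 with no centring, -0.0255 after quantile normalization, -0.0623 when centred on the highest 5%, 0.0761 with C alone and 0.12 after correction for the opposite strand, called as changed with the lower limit, with no centring, after quantile normalization, on the highest 5%, with C alone and after correction. That correction also turned the change relative to the other 11 mRNAs from -0.11 to 0.0265, and took the end-to-end change to -0.19 when made in each segment. Windows 12586-12635 and 12536-12585 went to -0.26 and -0.30 with no centring. Positions called numbered 337 with A alone (167 higher, 170 lower) and 500 with C alone (305 higher, 195 lower), and 17 of 18 windows of 100 nt were called. The Gini change was 0.0025 with C alone and lay between -0.0253 and -0.0239 over the fits without 1 library. Spearman's rho with the predicted unpaired probability was 0.0664 and 0.0162 (wild type, knockout) with A alone, 0.380 and 0.305 with C alone, 0.233 and 0.180 with deletions added, 0.229 in wild type with an upper limit of 0.1 and 0.213 with a folding window of 120 and span of 80. With the replicate number as a block, 831 positions were called, the ND5 change was 0.0054 (adjusted p = 0.790, limma) and the calls named in the report kept their side of the threshold. The other 256 alternatives for the main results and 150 for single windows and positions kept direction and call, the 4 segments among them, though some sizes moved, as given in the report for paired and unpaired bases; the causes were not tested. Unknown depth limits every single-base value.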

Other observations

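The base next to a C went with its level in ND5. C after A averaged 5.41% and 5.35% in wild type (165 positions), C after T 4.59% and 4.55% (162 positions), C after G 3.92% and 3.89% (81 positions), and C after C 3.45% and 3.39% (212 positions). The same order held in the knockout, with means of 3.23%, 2.72%, 2.17% and 1.92%. C after A and C after C had nearly the same predicted unpaired probability, 0.837 and 0.832. It was 0.774 for C after T and lower, 0.447, for C after G. On the 3′ side, C before C lost the most in the knockout, 0.88 on the log2 scale without centring, and C before G the least, 0.57. For A the base before made less difference, with means from 2.78% after T to 3.03% after A in wild type. The range by the base after it was wider, from 2.52% before A to 3.40% before G. The predicted unpaired probability was 0.840 for A before A and 0.457 for A before G. These values are descriptions over positions of 1 mRNA and were not tested.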
